A study of Rattus norvegicus with 8 samples.

Results

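Nucleolar ribosome biogenesis factors are the proteins that copy the ribosomal DNA into a long precursor RNA, modify and cut that RNA, and fold it with ribosomal proteins into the small and the large ribosomal subunit. RNA polymerase I makes the precursor, small nucleolar ribonucleoproteins methylate and pseudouridylate it, the small subunit processome assembles on its leading part, and separate sets of factors build the large subunit. The set described here holds 45 genes chosen by name for these roles, out of 36174 gene names on the array. The members, and the pathway lists and motifs used below, were chosen with earlier results of these data known. By gene name, 41 of the 45 had a probe, and each of these had a probe bright enough to be tested, among 17392 genes tested in all. The other 4 members (Wdr36, Utp6, Tsr1 and Rrp12) had no probe under their own gene name and are given separately from the probe descriptions.

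The cells were NR8383, a line of rat alveolar macrophages that was derived by lavage from a normal rat and grows partly attached and partly floating. One group, with 4 arrays, was the control, kept without nanotubes. The other, also with 4 arrays, was exposed to the multi-walled carbon nanotube NM401 at 0.17 µg/mL, and both were kept for 4 h in medium without serum. The submitters call the replicates biological without saying how the cultures were separated, all were of this single line, and each array carried Cy3-labelled RNA of 1 sample. The comparison asks which transcripts differ between exposed and control cells at that time.

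Of 13 macrophage markers 11 were well above background on all 8 arrays, among them Cd68, Csf1r and Spi1, while Marco was well above background on none. The summed linear signal of the macrophage list, as a multiple of each array's 75th percentile, was 154 to 163 in control and 134 to 142 with NM401. The same sum was 0.164 to 0.205 and 0.128 to 0.186 for epithelium, 1.03 to 1.23 and 0.474 to 0.572 for lymphocytes, 2.68 to 3.56 and 2.55 to 2.62 for fibroblasts and endothelium, and 0.481 to 0.666 and 0.323 to 0.442 for neutrophils. Of those other lists 3 of 9, 3 of 7, 4 of 8 and 4 of 7 genes on the array were well above background on no array, among them Epcam, Cd3e, Col1a1 and Elane. In the same order 1, 3, 4 and 1 genes were well above background on all 8 arrays. They were Foxj1, then Cd3d, Cd4 and Nkg7, then Col1a2, Pecam1, Cdh5 and Vwf, and last Camp. The part of these differences in the results was not tested.

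Control arrays had a 75th percentile signal of 1240 ± 224 (SD, n = 4) and NM401 arrays one of 2690 ± 172 (SD, n = 4), without overlap (exact permutation p = 0.0286, two-sided, the smallest that 4 against 4 allow). Every level below is a log2 signal relative to that percentile of its own array, so a difference is relative to the RNA signal of the array. On this scale 7 probes for spike-in RNA, which is added when samples are labelled, averaged 3.22 ± 0.479 in control and 0.928 ± 0.209 with NM401 (SD, n = 4). They fell by 2.29 (exact permutation p = 0.0286, two-sided), more than the largest fall of any member, which was that of Fbl (-0.74). Whether both groups received equal spike-in is not given in the sources used here, so the falls and rises reported hold relative to the array's RNA signal only. Slide 1 held all 4 control arrays with NM401 replicate 1, and slide 2, scanned separately, held the other NM401 replicates. The position on the slide also went with the group (row 1 for control, row 2 for NM401), and these cannot be told apart.

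Promoters are shown first, because the E-box CACGTG, the site that Myc with its partner Max is known to bind, was, of the 4 motifs searched, the one with the highest ratio of its share in members to its share in all promoters. RefSeq promoters of build GRCr8, each 250 bases before to 50 bases after an annotated start, were matched by symbol for 41 of the 45 members, all but Rrs1, Gnl2, Wdr43 and Bop1. The E-box stood in 17 of 41 member promoters (41.5%), against 6.42% of all 33469 promoters and 8.83% of the 9776 promoters whose symbol was that of a tested gene. It lay wholly before the start in 9 members. The stretches here, of 140 bases each, lie wholly before the start and show the E-box in capitals in 3 members that rose (Gnl3, Nol11 and Utp18) and 2 that fell (Pes1 and Dkc1).
Gnl3, chr16:6219783-6219922, minus strand: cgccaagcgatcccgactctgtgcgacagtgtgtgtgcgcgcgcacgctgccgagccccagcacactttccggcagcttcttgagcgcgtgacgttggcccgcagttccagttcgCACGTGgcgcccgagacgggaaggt
Nol11, chr10:92641459-92641598, minus strand: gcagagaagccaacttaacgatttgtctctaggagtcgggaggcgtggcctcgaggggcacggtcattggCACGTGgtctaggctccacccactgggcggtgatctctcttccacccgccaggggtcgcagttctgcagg
Utp18, chr10:79335778-79335917, minus strand: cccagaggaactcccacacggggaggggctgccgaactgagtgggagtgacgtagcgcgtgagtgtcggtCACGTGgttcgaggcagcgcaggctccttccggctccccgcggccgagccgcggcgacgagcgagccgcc
Pes1, chr14:83074206-83074345, plus strand: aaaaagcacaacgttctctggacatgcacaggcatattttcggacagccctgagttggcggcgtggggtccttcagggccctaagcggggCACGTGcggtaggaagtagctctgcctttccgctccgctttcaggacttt
Dkc1, chrX:157751401-157751540, plus strand: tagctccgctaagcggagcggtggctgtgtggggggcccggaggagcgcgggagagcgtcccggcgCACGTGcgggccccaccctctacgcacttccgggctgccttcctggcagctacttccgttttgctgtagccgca
The E-box begins 25 bases before the start in Gnl3, 134 in Nol11, 90 in Utp18, 50 in Pes1 and 184 in Dkc1. It was present in 5 of 14 promoters of members called higher, 3 of 6 called lower and 7 of 17 not called. The ETS motif CCGGAAG, searched like all others on both strands, stood in 20 of 41 member promoters (48.8%), against 8.75% of all and 17.5% of those of tested genes, and in 5 of 14, 5 of 6 and 7 of 17 in the same order. CCAAT stood in 13 of 41 (31.7%, against 37.5% of all and 37.6% of those of tested genes) and TGCGCA in 5 of 41 (12.2%, against 7.24% of all and 13% of those of tested genes). Matches of different motifs could share bases and were counted separately, and a match describes the letters only.

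The members did not move as 1 block. Among the 41 measured members, NM401 arrays were called higher for 16 and lower for 7, and 18 had no call (limma, adjusted p below 0.05). Of all 17392 genes 57.4% were called, 21.9% higher and 35.4% lower, so members called higher were a larger share (39%) and members called lower a smaller one (17.1%) than over all genes. These shares describe a set that was not chosen independently of the data. Large subunit factors and small subunit processome proteins held most of the rises, led by Rrs1 (2.17-fold) and Noc3l (2.12-fold), while the falls were spread over Fbl, the Pes1 and Bop1 pair, Nolc1, Polr1c, Dkc1 and Nhp2. Each difference given is the log2 level with NM401 less that in control, ± its SE from limma. The median over the 41 members was 0.08, against -0.10 over all genes tested, where the middle 50% of genes lay between -0.42 and 0.21. At least 1.5-fold, 5 members rose (7.04% of all genes) and 2 fell (15.2% of all genes). In 24 of 41 members the values of the groups were separate on all arrays, against 53.2% of all genes. All 41 members were well above background on all 8 arrays, against 87.5% of all genes tested. In these whole-culture samples, fewer cells making a transcript and less of it per cell cannot be told apart.

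**Figure D1:**
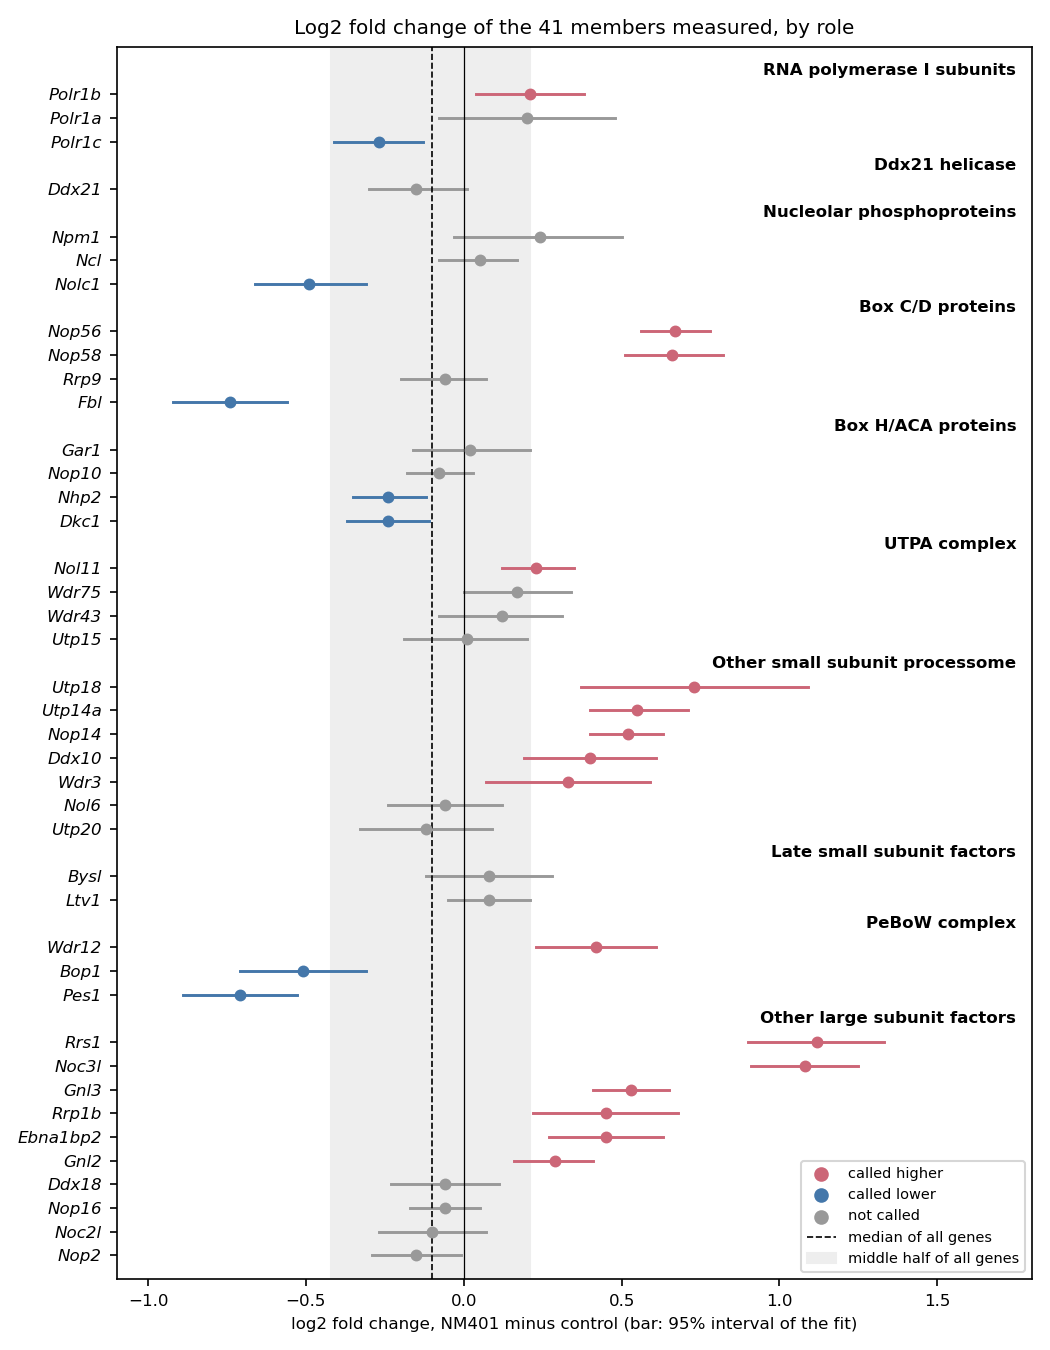
Log2 fold change (horizontal axis, NM401 minus control, 4 arrays per group) of the 41 measured members, grouped by role, with the 95% interval of the fit as a bar. Red points were called higher (16), blue points lower (7) and grey points did not pass, and the grey band spans -0.42 to 0.21, the middle 50% of all genes, around their median of -0.10.

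Among the RNA polymerase I subunits, 1 of 3 rose and 1 fell, where 21.9% of all genes rose and 35.4% fell. Polr1a, which encodes the largest subunit, stood at -2.85, -2.56, -2.84 and -2.34 on control arrays 1 to 4 and at -2.57, -2.33, -2.38 and -2.50 on NM401 arrays 1 to 4. Its groups overlapped and the difference was 0.20 ± 0.12 (limma adjusted p = 0.191). Polr1b, which encodes the next largest subunit, stood at -3.11, -2.94, -3.28 and -3.13 in control and at -2.89, -2.87, -2.93 and -2.93 with NM401. The groups did not overlap, and Polr1b rose by 0.21 ± 0.07 (limma adjusted p = 0.0387). That call was lost in 7 of 8 fits that each left out 1 array, all but that without control replicate 2 (limma adjusted p = 0.0691 to 0.0914), and with normexp background correction the value was -0.04. Polr1c, a subunit that polymerases I and III share, stood at 2.86, 2.85, 2.87 and 3.05 in control and at 2.60, 2.66, 2.64 and 2.66 with NM401. It fell by 0.27 ± 0.06 (limma adjusted p = 0.00607) with no overlap, and stood at -0.16 (limma adjusted p = 0.053) after quantile normalisation and at -0.06 (limma adjusted p = 0.456) after median scaling. Ddx21, an RNA helicase that acts in polymerase I transcription and in processing, differed by -0.15 ± 0.07 and was not called, and its other probes gave -0.12 and -0.26, also not called.

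The abundant nucleolar phosphoproteins went different ways. Nolc1, which accompanies small nucleolar ribonucleoproteins, stood at 3.00, 3.07, 2.83 and 3.14 in control and at 2.43, 2.56, 2.52 and 2.58 with NM401, and it fell by 0.49 ± 0.08 (limma adjusted p = 0.0011). Every NM401 array was below every control array. Ncl, nucleolin, which binds pre-ribosomal RNA and nucleolar chromatin, stood at 4.33, 4.36, 4.44 and 4.42 in control and at 4.40, 4.48, 4.37 and 4.48 with NM401, so the groups overlapped at its brightest probe (0.05 ± 0.05, limma adjusted p = 0.478). Npm1, nucleophosmin, a histone and ribosome assembly chaperone, stood at 4.59, 4.64, 4.36 and 4.30 in control and at 4.99, 4.61, 4.63 and 4.62 with NM401. NM401 replicate 1 was the highest of its group by a wide gap, the groups overlapped, and the difference was 0.24 ± 0.12 (limma adjusted p = 0.112).

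Other probes of Ncl and Npm1 were called higher, and 4 of these are shown because the result for both genes turns on the probe. They are the 60 bases on the array, with positions on rat build rn4 as the files give them.
Ncl probe 1, chr9:85113151-85113210, minus strand: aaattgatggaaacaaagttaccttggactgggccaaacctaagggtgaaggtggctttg
Ncl probe 2, chr9:85115401-85115460, minus strand: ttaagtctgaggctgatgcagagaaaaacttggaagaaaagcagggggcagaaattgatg
Npm1 probe 1, chr10:18055835-18056550, minus strand: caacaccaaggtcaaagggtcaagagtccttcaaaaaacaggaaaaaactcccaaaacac
Npm1 probe 2, chr10:18052314-18053248, minus strand: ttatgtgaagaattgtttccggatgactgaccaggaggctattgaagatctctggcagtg
The positions given for both Npm1 probes span more genome than their 60 bases. Ncl rose by 0.17 ± 0.06 (limma adjusted p = 0.0408) at probe 1, whose 10 spots were averaged, and by 0.25 ± 0.07 (limma adjusted p = 0.0146) at probe 2. Npm1 rose by 0.35 ± 0.06 (limma adjusted p = 0.00167) at probe 1, by 0.32 ± 0.06 (limma adjusted p = 0.00292) at probe 2, and by 0.36 ± 0.07 at another probe with 10 spots, whereas its brightest probe has 1 spot. As a mean of their probes, Ncl stood at 0.16 (limma adjusted p = 0.0403) and Npm1 at 0.32 (limma adjusted p = 0.00685), and after quantile normalisation at 0.31 and 0.53, both called. How far copies of such abundant genes elsewhere in the genome share these signals was not tested.

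**Figure D2:**
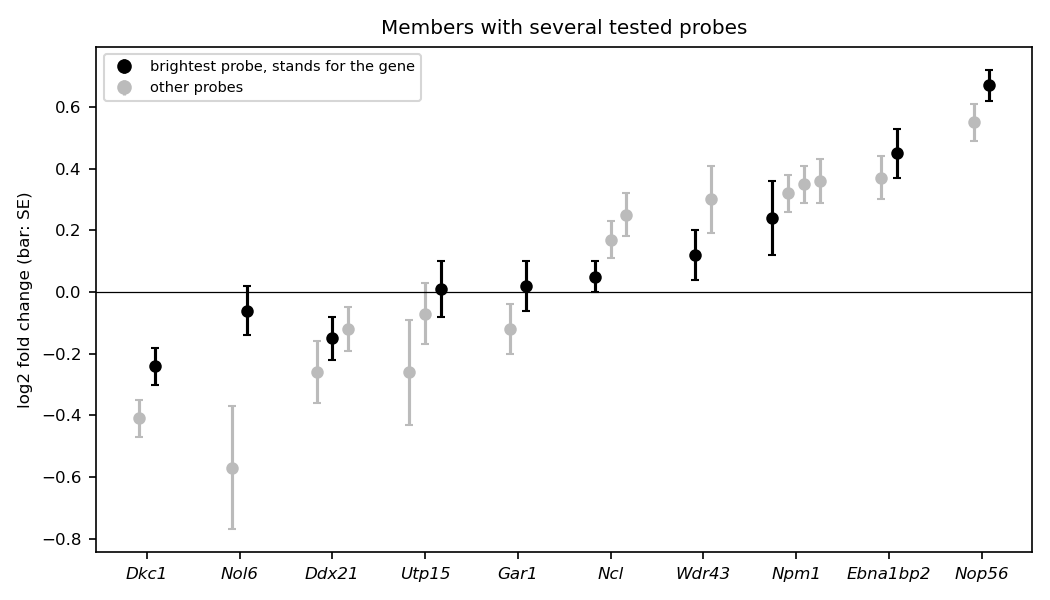
Log2 fold change (vertical axis, NM401 minus control, bar: SE) of every tested probe of the 10 members with several. Black points are the brightest probe, which stands for the gene, and grey points are the others, so that the brightest Ncl and Npm1 probes (0.05 and 0.24) are the lowest of their genes.

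The box C/D proteins, which form the particles that methylate ribose in ribosomal RNA, split in direction: 2 of 4 rose and 1 fell. Over all genes 21.9% rose and 35.4% fell. Nop56, a scaffold protein of these particles, stood at 1.44, 1.41, 1.36 and 1.35 in control and at 2.03, 2.06, 2.04 and 2.10 with NM401. It rose by 0.67 ± 0.05 (limma adjusted p = 5.15e-05), and all NM401 arrays were above all control arrays. Its brightest probe is placed by the files on chromosome 9 (70791514 to 70791573 of rn4), whereas the Nop56 promoter lies on chromosome 3 of GRCr8. How far a copy of the gene gives the signal of that probe was not tested. The other probe, shown here because it lies on chromosome 3, gave 0.55 ± 0.06.
Nop56 other probe, chr3:117892273-117892332, plus strand: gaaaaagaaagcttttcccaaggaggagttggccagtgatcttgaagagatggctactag
Nop58, the paired scaffold protein, stood at -0.14, -0.06, 0.08 and 0.10 in control and at 0.63, 0.65, 0.62 and 0.73 with NM401, a rise of 0.66 ± 0.07 (limma adjusted p = 0.000164) without overlap. Fbl, fibrillarin, the methyltransferase of the same particles, went the other way. It stood at 4.60, 4.64, 4.56 and 4.56 in control and at 4.07, 3.80, 3.76 and 3.77 with NM401, and fell by 0.74 ± 0.08 (limma adjusted p = 0.00019). NM401 replicate 1 was the highest of its group and still below every control array. Fbl stood at -0.50 after quantile normalisation and at -0.52 within slide 1, and these calls of Nop56, Nop58 and Fbl held in every alternative tried. Rrp9, a protein of the particle that guides early cleavage, differed by -0.06 ± 0.06 and was not called.

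Of the box H/ACA proteins, which form the particles that convert uridine to pseudouridine, 2 of 4 fell and 0 rose. Over all genes 35.4% fell and 21.9% rose, and limma gave none of the 4 a positive difference with an unadjusted p below 0.05. Dkc1, dyskerin, the pseudouridine synthase, stood at 1.11, 1.21, 1.07 and 1.12 in control and at 0.80, 0.86, 0.95 and 0.93 with NM401. It fell by 0.24 ± 0.06 (limma adjusted p = 0.0079) without overlap, and by 0.41 ± 0.06 at its other probe. Nhp2, a core protein of the particle, fell by 0.24 ± 0.05 (limma adjusted p = 0.00471). After quantile normalisation Dkc1 stood at -0.19 and Nhp2 at -0.14, both called (limma adjusted p = 0.0254 and 0.043). After median scaling they stood at -0.04 and -0.03, neither called (limma adjusted p = 0.711 and 0.686). Nop10 differed by -0.08 ± 0.05, with no overlap between groups yet no call (limma adjusted p = 0.196), and Gar1, another core protein, by 0.02 ± 0.08. After median scaling these stood at 0.13 and 0.23.

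The small subunit processome is counted here without the box C/D proteins given above, of which Fbl fell. By their brightest probes, 6 of the 11 measured members counted so rose and none fell, where 21.9% of all genes rose and 35.4% fell. In limma 0 of 11 were lower also at an unadjusted p below 0.05. In the UTPA complex, which binds the precursor while it is being made, Nol11 rose by 0.23 ± 0.05 (limma adjusted p = 0.00474), while Wdr75 (0.17 ± 0.08), Wdr43 (0.12 ± 0.08) and Utp15 (0.01 ± 0.09) did not pass. A dimmer probe of Wdr43 was called higher at 0.30 ± 0.11 (limma adjusted p = 0.0477). Of the other processome members, 5 of 7 rose and 2 did not pass. Utp18, a repeat protein of the processome, stood at -1.11, -1.06, -1.36 and -1.71 in control and at -0.32, -0.65, -0.62 and -0.74 with NM401. It rose by 0.73 ± 0.16 (limma adjusted p = 0.00482), and the control arrays were the more spread of its groups. Utp14a, which activates a helicase of the processome, stood at -0.95, -0.98, -1.13 and -1.09 in control and at -0.41, -0.47, -0.60 and -0.47 with NM401, a rise of 0.55 ± 0.07 (limma adjusted p = 0.000328) without overlap. Nop14 rose by 0.52 ± 0.05, the helicase gene Ddx10 by 0.40 ± 0.09 and Wdr3 by 0.33 ± 0.11. Wdr3 was the only member called although its groups overlapped, and its call was lost in 6 of 8 fits that each left out 1 array, all but those without control replicate 2 or NM401 replicate 1 (limma adjusted p = 0.0578 to 0.0891). Nol6 (-0.06 ± 0.08) and Utp20 (-0.12 ± 0.09) did not pass, though a dimmer Nol6 probe was called lower at -0.57 ± 0.20 (limma adjusted p = 0.0394). Utp20 stood at -0.51 with normexp and was called lower there (limma adjusted p = 0.000517). Its mean level was low, at -4.59 in control and -4.71 with NM401.

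Late factors accompany the small subunit precursor toward the cytoplasm, and neither of the 2 of 4 measured by gene name was called. Of all genes 57.4% were called. Bysl differed by 0.08 ± 0.09, with a 95% interval of -0.12 to 0.28, and Ltv1 by 0.08 ± 0.06, with an interval of -0.05 to 0.21. In limma 0 of these 2 members had an unadjusted p below 0.05, and Ltv1 was called at 0.18 with the deposited series values (limma adjusted p = 0.0296) and at 0.28 after median scaling (limma adjusted p = 0.0251), where Bysl was also called, at 0.29 (limma adjusted p = 0.0406).

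The PeBoW complex, a trio of Pes1, Bop1 and Wdr12 needed for cutting the precursor of the large subunit RNA, held both directions. Pes1 stood at 2.40, 2.41, 2.40 and 2.26 in control and at 1.85, 1.65, 1.57 and 1.55 with NM401, and fell by 0.71 ± 0.08 (limma adjusted p = 0.000215). Bop1 stood at 0.35, 0.45, 0.41 and 0.71 in control and at -0.15, 0.05, 0.02 and -0.03 with NM401, and fell by 0.51 ± 0.09 (limma adjusted p = 0.00182). Neither had an overlap between groups. Wdr12 rose by 0.42 ± 0.08 (limma adjusted p = 0.00327), from 1.21, 1.29, 1.27 and 1.30 in control to 1.46, 1.78, 1.71 and 1.81 with NM401. NM401 replicate 1 was the lowest of its group, and within slide 1 Wdr12 stood at 0.19 (limma adjusted p = 0.248). The probe that measured Bop1 is shown with that of Rrs1, the member with the largest rise, since each gene rests on 1 probe.
Bop1, chr7:114500906-114501053, minus strand: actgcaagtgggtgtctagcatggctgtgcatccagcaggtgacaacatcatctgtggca
Rrs1, chr5:9305424-9305483, minus strand: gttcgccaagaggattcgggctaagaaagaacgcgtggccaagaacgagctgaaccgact

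Of the other large subunit factors, 6 of 10 rose and 4 did not pass, where 21.9% of all genes rose and 35.4% fell. Rrs1, which helps place a small ribosomal RNA with its proteins into the large subunit, stood at -2.58, -2.53, -2.74 and -2.63 in control and at -1.77, -1.43, -1.42 and -1.40 with NM401. It rose by 1.12 ± 0.09 (limma adjusted p = 8.86e-05). NM401 replicate 1 was the lowest of its group and above all control arrays. Noc3l, a partner in early large subunit particles, stood at -3.26, -3.18, -3.22 and -3.26 in control and at -1.98, -2.26, -2.25 and -2.09 with NM401, a rise of 1.08 ± 0.07 (limma adjusted p = 4.61e-05) without overlap. With normexp Rrs1 stood at 0.87 and Noc3l at 0.71, both called. The GTPase gene Gnl3, nucleostemin, rose by 0.53 ± 0.05, Ebna1bp2 by 0.45 ± 0.08, Rrp1b by 0.45 ± 0.10 and Gnl2, another nucleolar GTPase, by 0.29 ± 0.06. Noc2l (-0.10 ± 0.07), Nop16 (-0.06 ± 0.05), the helicase gene Ddx18 (-0.06 ± 0.07) and Nop2, a methyltransferase of large subunit RNA (-0.15 ± 0.06, limma adjusted p = 0.0685), did not pass.

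**Figure D3:**
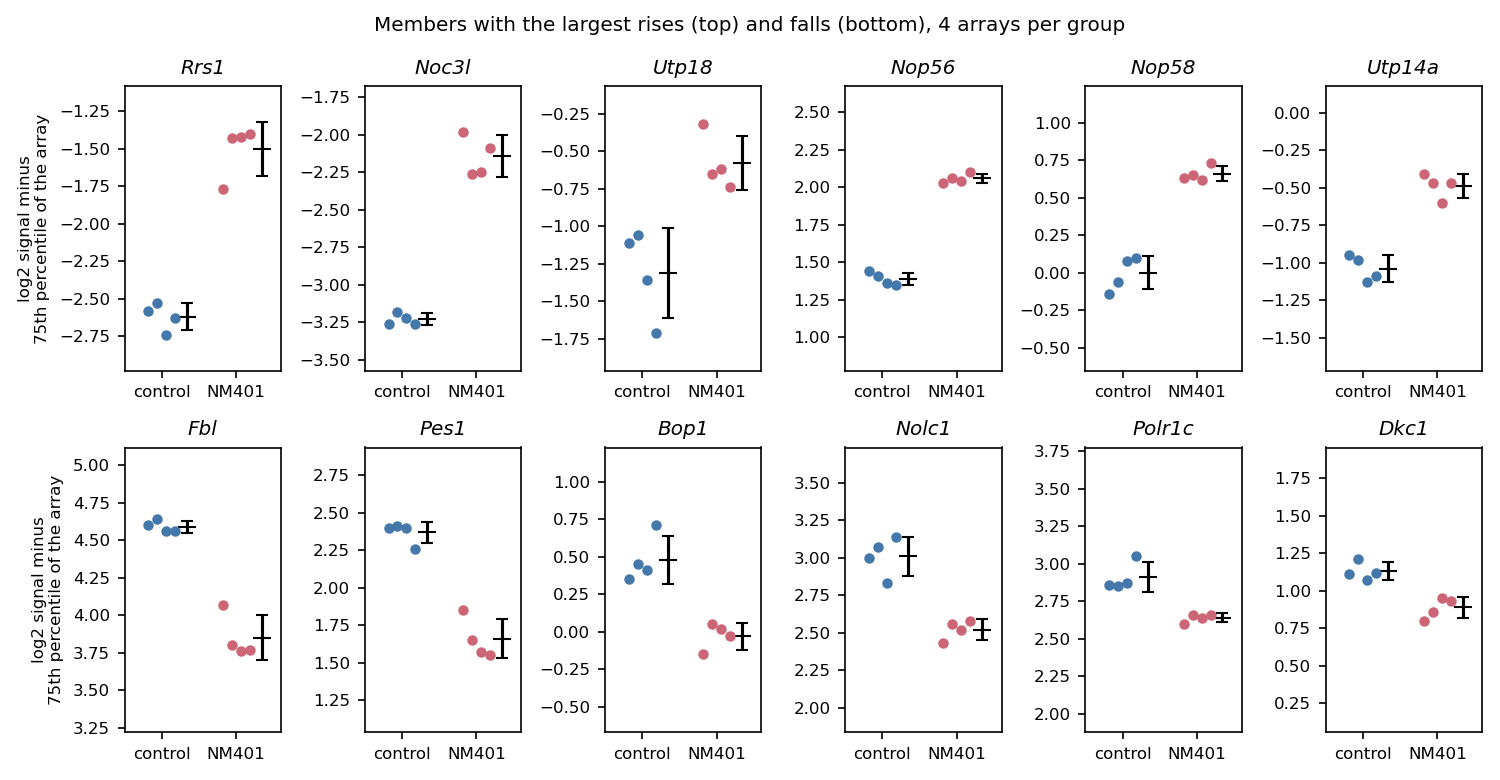
Log2 signal minus the 75th percentile of the array (vertical axes, each spanning the same range) on the 4 control (blue) and 4 NM401 (red) arrays, replicates 1 to 4 from left to right, for the 6 largest rises (top) and 6 largest falls (bottom) among called members without overlap. Black marks give mean ± SD, and in every panel the groups are separate.

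The 4 members without a probe of their own gene name were found by the description of the probe, a match added after the data had been seen. Utp6, a processome protein, rose by 0.65 ± 0.13 (limma adjusted p = 0.00296), from -0.76, -0.78, -1.22 and -1.27 in control to -0.32, -0.38, -0.34 and -0.38 with NM401. Tsr1, a late small subunit factor, rose by 0.22 ± 0.08 (limma adjusted p = 0.0438), and Rrp12, an export factor, differed by 0.09 ± 0.08 and was not called. For Wdr36, a processome protein, the brighter of the probes rose by 0.20 ± 0.06 (limma adjusted p = 0.0171) and the dimmer differed by -0.07 ± 0.09. With these, 19 of 45 members rose, 7 fell and 19 did not pass, where 21.9% of all genes rose and 35.4% fell.

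Genes of the same pathway that are not members were counted from 4 lists, in which 113 of 124 genes were tested. In these 44 (38.9%) rose and 25 (22.1%) fell, with a median of 0.07, beside 21.9% and 35.4% of all genes and their median of -0.10. For polymerase I transcription, 7 of 17 rose and 2 fell. Taf1a and Taf1d, subunits of the promoter selectivity factor, rose by 1.14 ± 0.10 and 1.02 ± 0.07, and the polymerase subunit gene Polr1g by 0.55 ± 0.05. Polr1f rose by 0.65 ± 0.07, but stood at -0.10 with normexp and at -0.02 with the deposited series values. Tcof1, the treacle gene, fell by 0.45 ± 0.06, and the subunit gene Polr1h (Znrd1 on the array) by 0.21 ± 0.06, the latter at -0.01 and not called after median scaling (limma adjusted p = 0.931). Myc, a transcription factor that binds the E-box, is given for that reason and was chosen after its values were seen. It stood at 0.33, 0.08, 0.23 and -0.36 in control and at 0.94, 0.85, 0.92 and 0.83 with NM401, a rise of 0.81 ± 0.14 (limma adjusted p = 0.00178) without overlap. Max, the partner of Myc at the E-box, differed by 0.02 ± 0.12 and was not called (limma adjusted p = 0.888).

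Of the further small subunit genes, 13 of 37 rose (35.1%) and 12 fell (32.4%), where 21.9% of all genes rose and 35.4% fell. The rises included Mphosph10 (0.87 ± 0.06), Esf1 (0.86 ± 0.08), Utp3 (0.77 ± 0.07) and the kinase gene Riok2 (0.44 ± 0.05). Falls included Emg1, a methyltransferase (-0.92 ± 0.11), the helicase gene Ddx49 (-0.77 ± 0.10), Tbl3 (-0.53 ± 0.08) and Rcl1 (-0.40 ± 0.05). Of the further large subunit genes, 17 of 44 rose (38.6%) and 9 fell (20.5%). That list was fixed with Noc4l in it, although its protein is known as a small subunit factor that partners that of Nop14. Ppan rose by 0.86 ± 0.06, and Rpf2, whose protein partners that of Rrs1, by 0.72 ± 0.08. Rsl24d1 rose by 0.72 ± 0.09 and Nol8 by 0.68 ± 0.08. Pelp1 and Wdr18, whose proteins share a complex, fell by 0.75 ± 0.05 and 0.40 ± 0.06, Noc4l by 0.62 ± 0.07 and Rsl1d1 by 0.48 ± 0.06, while the probes of Rsl1d1 averaged 0.11 and its brightest stood at -0.04 after quantile normalisation (limma adjusted p = 0.632), not called. After median scaling Wdr18 stood at -0.19 (limma adjusted p = 0.0501) and Rcl1 at -0.20 (limma adjusted p = 0.0898), not called. Of the exosome and other trimming genes, 7 of 15 rose (46.7%) and 2 fell (13.3%). Among the rises were Exosc9 (0.47 ± 0.05), Isg20l2 (0.46 ± 0.10), Exosc2 (0.41 ± 0.05) and Exosc3 (0.30 ± 0.06). The 2 that fell were Xrn2 (-0.33 ± 0.07) and Exosc5 (-0.30 ± 0.06). With normexp Isg20l2 stood at 0.06 (limma adjusted p = 0.48) and Exosc3 at 0.03 (limma adjusted p = 0.658), and both also lost their call with the deposited series values (0.14 and 0.09). After median scaling Xrn2 stood at -0.13 (limma adjusted p = 0.168) and Exosc5 at -0.10 (limma adjusted p = 0.294), not called.

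How the calls divided into rises and falls changed with the scaling and the background correction. The share of rises among called members was 69.6% as scaled here, 75% with arrays quantile normalised (18 rises and 6 falls) and 85.7% with arrays scaled to their median (24 rises and 4 falls). Over all genes these shares were 38.2%, 49.5% and 64.6%. Normexp moved the split the other way, with 16 members higher and 10 lower (61.5% rises, against 22.6% over all genes), where Utp20, Nol6 (-0.20, limma adjusted p = 0.0313) and Ddx18 (-0.25, limma adjusted p = 0.0135) were called lower. Normexp used the same offset of 50 on every array, while the 75th percentile averaged 1240 in control and 2690 with NM401. The part of that offset in the normexp values, which would weigh most on dim probes, was not tested. After median scaling the median over all genes was 0.11. Fitted with slide as a block, 11 members were higher and 7 lower (12.7% and 20.2% of all genes), and within slide 1 7 were higher and 2 lower (4.34% and 7.8% of all genes). In both of those fits the difference rests on NM401 replicate 1 alone, as the only NM401 array beside the control arrays. Within slide 1 that array is assumed to vary like the control arrays. With slide as a block the spread comes also from the NM401 arrays of slide 2. With slide as a block, calls were lost for Polr1b, Nhp2, Nol11, Wdr3, Wdr12, Rrp1b and Gnl2 and gained for Npm1 (0.52, limma adjusted p = 0.03) and Noc2l (-0.28, limma adjusted p = 0.037). Within slide 1 Rrs1 stood at 0.85, Noc3l at 1.25, Fbl at -0.52 and Pes1 at -0.52, all called, while Utp18 at 0.99 (limma adjusted p = 0.0689) and Bop1 at -0.63 (limma adjusted p = 0.0655) were not.

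**Figure D4:**
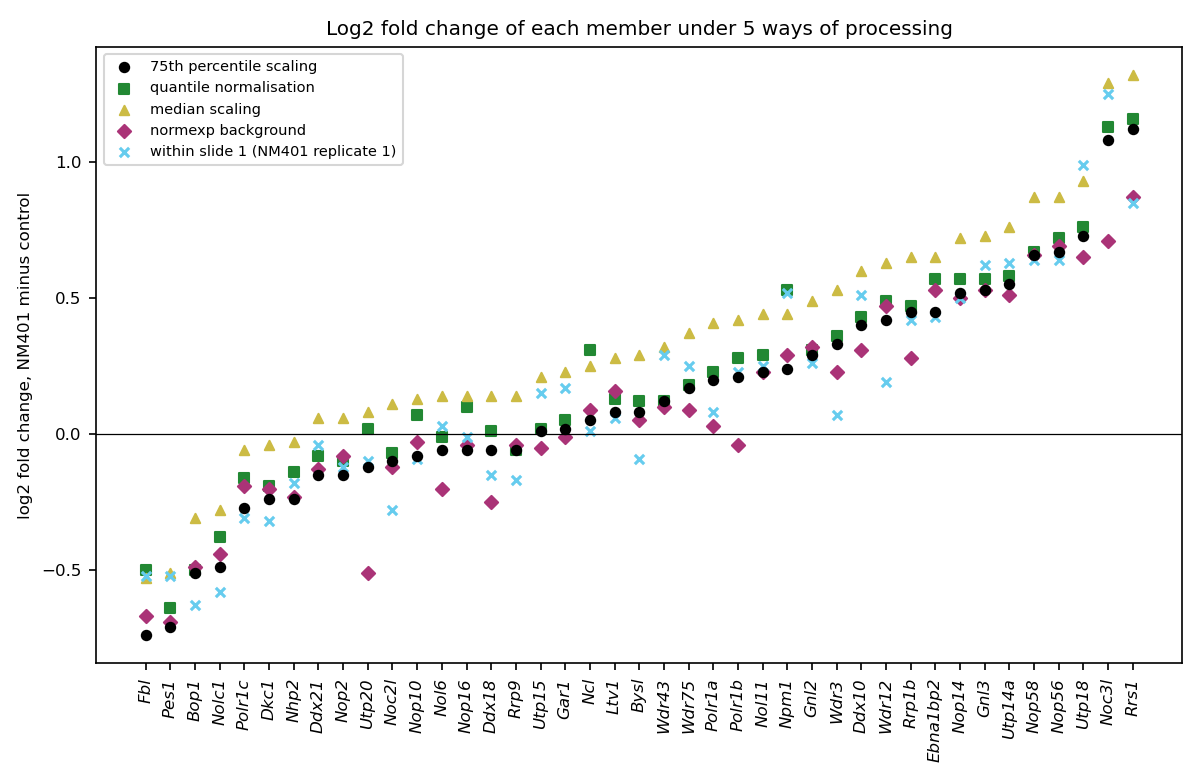
Log2 fold change (vertical axis, NM401 minus control) of each of the 41 measured members, ordered by the values as scaled here (black), after quantile normalisation (green), median scaling (yellow), normexp background correction (purple) and within slide 1 (light blue). Median scaling raised every value, and members near 0 changed sign between settings, while the extremes from Fbl (-0.81 to -0.50 over all alternatives) to Rrs1 (0.85 to 1.32) did not.

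The base composition of the probes moved with the direction of change. The probes of the 7 members that fell had a median GC content of 45%, those of the 16 that rose 39.2% and those not called 40.8%. Over all genes the medians were 45%, 41.7% and 43.3% in the same order, and GC content and log2 fold change correlated at r = -0.214 (rho = -0.212) across 17392 genes and at r = -0.204 (rho = -0.263) across the 41 members. Genes share the arrays and are not independent replicates, and the part of base composition in these results was not tested. On rn4 the probes standing for members lay on many chromosomes, with 6 on chromosome 9, 5 on chromosome 5 and 4 on chromosome 1, and 3 had no position. The 6 on chromosome 9 include that of Nop56, whose promoter lies on chromosome 3 of GRCr8.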

How the data were processed

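Total RNA of NR8383 cells was measured on 8 Agilent 1-colour arrays, 4 per group, per the labels. The spot intensity that the authors deposited comes from Agilent Feature Extraction 11.0.1.1, per the submitters' processing notes. For its processed signal that program subtracted background and detrended each array, per the file headers. The deposited series values were not that processed signal but equalled the median pixel intensity of each spot (503808 of 503808). Of 62976 spots per array 58717 were not controls, and 0 were saturated. Outlier spots were dropped and a probe's remaining spots averaged (47 of 45598 probes had none left on some array). Values are log2 processed signal minus the array's 75th percentile over non-control spots. Probes well above background on at least 4 arrays (21684) were fitted with limma 3.58.1 (R 4.3.3, version 1.17.8 of data.table, lmFit and eBayes, two-sided, no covariate), with Benjamini-Hochberg adjustment over all of them. A gene is its brightest tested probe, by the file's gene name. The fit was tested on simulated data. Members, lists and motifs were chosen with earlier results of these data known. Array values are given for the 6 largest rises and falls without overlap, the polymerase I subunits and 6 further members fixed by name; Wdr12, Utp6 and Myc were added after values were seen. From each pathway list up to 4 called genes per direction with the smallest p are named, and Myc and Max besides. Alternatives were normexp (offset 50), quantile and median scaling, other filters, the mean of probes, the series values, replicate and slide blocks, slide 1 alone and leaving out each array. Figures used matplotlib 3.10.9 in Python 3.11.15. The number of arrays limits the precision.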

Additional observations from a re-analysis of the deposited data

Results flagged for a closer look

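In 8 of 82 member groups of 4 arrays, 1 array stood far from the other 3. The rule used for the gap is passed by about 1 in 20 independent groups. These groups share the same 8 arrays, so they are not independent and an excess over that rate was not tested. NM401 replicate 1, the NM401 array on slide 1, was the one apart in 4 of the 8. There Fbl was highest at 4.07 (others 3.76 to 3.80), Npm1 highest at 4.99 (others 4.61 to 4.63), Ddx10 highest at -1.06 (others -1.22 to -1.20) and Rrs1 lowest at -1.77 (others -1.43 to -1.40). Without that array Fbl, Ddx10 and Rrs1 were still called in their direction and Npm1 was not called. Control replicate 4 stood apart in 3, with Polr1c highest at 3.05 (others 2.85 to 2.87), Ltv1 lowest at -0.89 (others -0.72 to -0.70) and Pes1 lowest at 2.26 (others 2.40 to 2.41). Nop10 was highest at 3.25 on NM401 replicate 2 (others 3.18 to 3.19).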

How the results depend on the processing

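Of the 23 called members, 22 kept their sign under all 18 alternatives (Polr1b did not) and 9 also kept their call (Nop56, Nop58, Fbl, Utp14a, Nop14, Pes1, Rrs1, Gnl3 and Noc3l). For what follows the cause was not tested. The median of the members relative to all genes was 0.18 as scaled here, 0.29 with normexp, 0.14 after quantile normalisation, 0.47 with no filter on dim probes, 0.25 as a mean of probes and 0.28 with the series values. With normexp 9370 genes were lower. After median scaling 4 members and 7 pathway genes were lower, and 6095 genes were higher and 3347 lower. Pathway genes lower numbered 15 with no filter and 13 with slide as a block, where 2214 genes were higher and 3515 lower. Within slide 1, which has fewer arrays, 7 members were higher and 2 lower, 13 pathway genes higher and 3 lower, and 755 genes higher and 1357 lower. Signs turned with normexp for Polr1b (-0.04), Gar1 (-0.01), Utp15 (-0.05) and Polr1f (array name Twistnb, -0.10), and with the series values for Utp15 (-0.06) and Polr1f (-0.02). They turned after quantile normalisation for Nop10 (0.07), Utp20 (0.02), Nop16 (0.10) and Ddx18 (0.01), and as a mean of probes for Gar1 (-0.05), Utp15 (-0.11) and Rsl1d1 (0.11). After median scaling they turned for Ddx21 and Nop2 (0.06), Utp20 (0.08), Noc2l (0.11), Nop10 (0.13), and Rrp9, Nol6, Nop16 and Ddx18 (0.14). With slide as a block and within slide 1 they turned for Nol6 (0.03) and Bysl (-0.09). Leaving out 1 array at a time, Gar1 ranged from -0.03 to 0.07 and Utp15 from -0.06 to 0.04. Same-numbered replicates correlated in their deviations from the group means at 0.19, 0, 0.08 and -0.07 across genes. Whether their cultures were paired is not given in the sources used here. With a replicate block 15 members were higher and 7 lower, and Wdr3 lost its call (0.33, limma adjusted p = 0.0515).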
